A study of Mus musculus with 3 samples.

Results

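The comparison set the DNA methylation of mouse embryonic stem (ES) cells that lack the DNA methyltransferases, called Dnmt TKO, against that of wild-type ES cells. Methylation was measured by reduced representation bisulfite sequencing (RRBS), which reads short genomic fragments cut at the CCGG sites of MspI. The members were the CpGs covered by over 10 reads in both libraries, and 299007 of the 1388024 CpGs listed in any of the 3 libraries of the series met this rule. The methylation level is the percentage of reads at a CpG that were called methylated.

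The study asked where DNMT3A acts at the borders of unmethylated CpG islands, and its RRBS libraries comprise wild type, Dnmt3a KO and Dnmt TKO, with 1 library each. The wild-type cells came from blastocysts of mixed 129-C57Bl/6 background and were grown on feeder cells or gelatine. The Dnmt TKO cells carry the strain label J1 and were grown on gelatine, as were the Dnmt3a KO cells, whose strain label is that of the wild type. All were kept in medium with serum and LIF. Genotype, strain, culture surface and library therefore cannot be told apart in this comparison. There is no genotype test, and the 95% intervals given (Wilson intervals for shares of reads) cover counting error only, with CpGs on 1 read and PCR copies counted as if independent.

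In mammals DNA methylation is placed almost wholly on cytosines of CpG dinucleotides. DNMT3A and DNMT3B set the mark on unmethylated DNA, and DNMT1 copies it onto the new strand after replication. A triple knockout lacks all of these enzymes, and ES cells can grow without them. Bisulfite turns unmethylated cytosine into uracil, so a cytosine that is left unconverted is read as methylated, whatever left it so, and 5-hydroxymethylcytosine is read as methylated as well.

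The sequences below show what the comparison looked like at single stretches of mm9. They come from germ cell genes, an imprinted gene and a pluripotency gene near their starts, followed by a CpG that kept high methylation in Dnmt TKO. Near each start, the stretch outside exons with the largest sum of wild-type levels and methylated Dnmt TKO reads was taken. Its wild-type level can therefore lie above that of the promoter. Capitals mark the CpGs that were covered by over 10 reads in both libraries. Each stretch is written 5′ to 3′ on the strand given.
Asz1, chr6:18059073-18059162, minus strand: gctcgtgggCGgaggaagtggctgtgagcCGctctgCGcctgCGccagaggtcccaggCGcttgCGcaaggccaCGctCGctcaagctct
Dazl, chr17:50432928-50432955, minus strand: tcatcccccCGgggCGCGcagcccaCGc
Zrsr1, chr11:22872866-22873002, plus strand: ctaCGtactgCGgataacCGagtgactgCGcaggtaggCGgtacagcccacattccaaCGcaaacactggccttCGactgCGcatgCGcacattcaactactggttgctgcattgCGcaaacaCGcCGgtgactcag
Klf4, chr4:55545806-55545908, minus strand: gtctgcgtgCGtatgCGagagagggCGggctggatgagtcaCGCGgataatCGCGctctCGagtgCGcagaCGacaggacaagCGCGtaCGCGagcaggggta
chromosome 17 CpG, chr17:76395154-76395235, plus strand: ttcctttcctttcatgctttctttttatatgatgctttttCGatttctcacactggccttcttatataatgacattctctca

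The stretch just upstream of Asz1, a gene of the piRNA pathway of germ cells, held 8 measured CpGs with a mean wild-type level of 60.7%. Their levels ran from 0% to 84.2% in wild type, and the CpG without methylation (0 of 74 reads) lay between neighbours at 49.3% and 84.2%. In Dnmt TKO none of the 145 reads summed over these CpGs (11 to 20 at each) was methylated. This allows a share of up to 2.07% if they are independent. The 4 CpGs upstream of Dazl, an RNA-binding protein of germ cells, averaged 57.8% in wild type. They had 0 of 46 methylated reads in Dnmt TKO (11 to 13 at each CpG), which allows up to 6.52% on the same terms.

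The Zrsr1 stretch lies upstream of this imprinted gene, inside Commd1, the gene that hosts it, and shows the intermediate level known for DNA that is methylated on 1 parental copy. Its 12 CpGs spanned 32.0% to 45.5% in wild type. In Dnmt TKO 0 of 357 reads were methylated, which allows up to 0.840%. The stretch at Klf4, a pluripotency transcription factor, had no methylated read at its 14 CpGs in either library (0 of 212 in wild type, 0 of 163 in Dnmt TKO).

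Over all shared CpGs the mean level was 15.6% in wild type and 0.0799% in Dnmt TKO. The difference was -15.5 percentage points (95% interval -15.6 to -15.5), and 99.5% of the wild-type mean was gone. The size of this difference depends on how CpGs are weighted and chosen: it was -9.65 with reads pooled over CpGs, -9.04 at CpGs with over 20 reads in both libraries and -36.3 as a mean over windows of 1 kb. Of the Dnmt TKO reads, 5487 of 6338590 (0.0866%, interval 0.0843% to 0.0889%) were methylated. A fall of at least 20 percentage points occurred at 66068 CpGs, which is 22.1% of all tested, and a rise of that size at 0 (0%). A CpG could fall by that much only where wild type had at least 20%, and 66068 of 66126 such CpGs (99.9%) did. With over 20 reads in both libraries fewer CpGs were tested, and 5384 fell by 20 points. Their share of the CpGs tested under that rule was not computed, so the lower count is no measure of a smaller loss.

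At the other end of the range, 182121 CpGs (60.9%) had no methylated read in either library. Dnmt TKO exceeded wild type at 1414 CpGs, and at 1145 of these wild type had no methylated read. The largest such rise was 16.7 percentage points. The 489 CpGs that were fully methylated in wild type included 478 without a methylated read in Dnmt TKO.

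The loss was then read by wild-type level. CpGs under 20% in wild type numbered 232881 and had a wild-type mean of 1.01%. In Dnmt TKO 1826 of 4143905 reads (0.0441%, interval 0.0421% to 0.0461%) were methylated there. The 43532 CpGs from 20% to 80% fell from a mean of 56.9% to 0.185%. Pooled over reads, their Dnmt TKO share was 0.144% (interval 0.138% to 0.149%, 2676 of 1861681 reads).

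The 22594 CpGs of at least 80% fell from a mean of 86.7% to 0.262%, a difference of -86.4 percentage points (interval -86.5 to -86.3). Their pooled Dnmt TKO share was 0.296% (interval 0.278% to 0.315%, 985 of 333004 reads), and it was 0.520% at CpGs with over 20 reads in both libraries. The 0.520% includes the chromosome 16 CpG described below, with 144 of 152 methylated reads. The 3 intervals of the pooled shares did not overlap, and the shares rose with the wild-type class. The share in the highest class was 6.71 times that in the lowest, and that in the middle class 3.26 times. As parts of the wild-type mean, 99.7% was lost in both upper classes and 95.8% in the lowest. The classes were chosen on the same wild-type reads, which raises the wild-type mean of the highest class. With class and level taken from separate random parts of those reads, the difference at 80% or more was -80.6 percentage points.

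Finer classes of wild-type level were compared as well. CpGs under 10% in wild type had a Dnmt TKO share of 0.0415% (interval 0.0396% to 0.0436%), those from 30% to 40% had 0.183%, and those from 80% to 90% had 0.258% (interval 0.239% to 0.279%). From 30% to 70% the classes did not rise steadily. Among CpGs of 90% or more the pooled share was 0.414%, while the mean over CpGs was 0.255%, below the 0.264% of the class beneath. This top class holds the 2 CpGs that were above 90% in Dnmt TKO as well, described below, and without them its pooled share was 0.219% (interval 0.189% to 0.254%), lower than that of the class beneath with overlapping intervals.

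**Figure D1:**
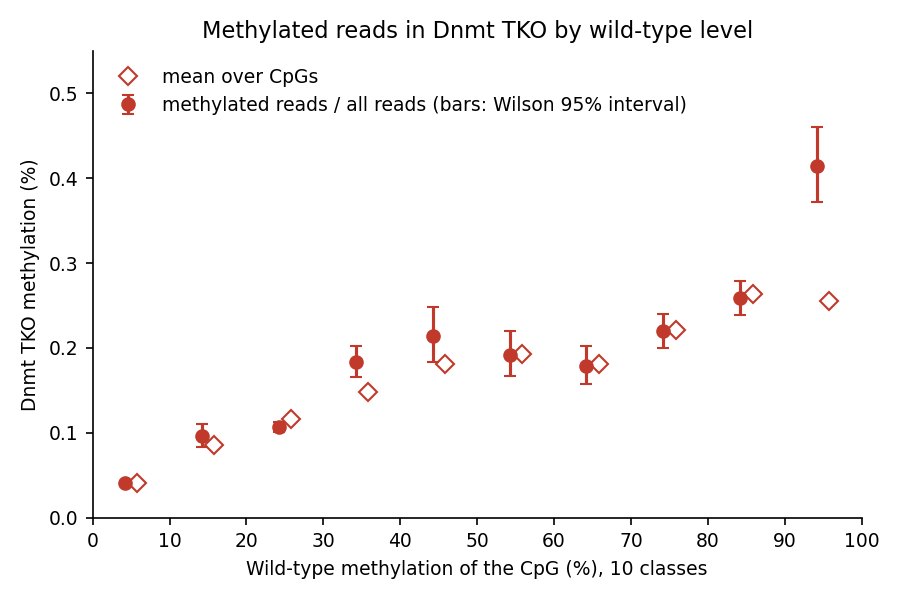
Methylated reads of Dnmt TKO in 10 classes of wild-type level (x axis, percent). With the 2 CpGs above 90% in Dnmt TKO included, filled points give the pooled share of reads in percent with 95% Wilson intervals, open diamonds the mean over CpGs, from 0.0415% pooled at under 10% to 0.414% pooled and 0.255% as a mean at 90% or more.

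Of the CpGs of at least 80% in wild type, 3.58% had any methylated read in Dnmt TKO. These were 808 CpGs, of which 17 had more than 1 methylated read and 4 had at least 3. The median depth in this class was 13 reads in Dnmt TKO, so 1 read stood for 7.69% and a count of 0 at 1 CpG allowed up to 23.1%. Low levels could therefore be measured for groups of CpGs and not for a CpG on its own.

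CpGs with a methylated Dnmt TKO read stood next to each other. Among CpGs of at least 80%, when a CpG had such a read, the next shared CpG within 50 bp had one in 76.5% of 379 pairs, against 0.944% of the pairs in which the first had none. In the middle class this was 64.1% against 1.19%, and under 20% it was 22.4% against 0.581%. The deposited tables do not say which calls lie on the same read.

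Only 2 of all shared CpGs exceeded 20% in Dnmt TKO, and both were above 90%. A CpG on chromosome 16 had 144 of 152 methylated reads in Dnmt TKO (94.7%), 20 of 22 in wild type (90.9%) and 115 of 119 in Dnmt3a KO (96.6%). It lies 215 bp from the nearest MspI site. The CpG at position 76395194 of chromosome 17 (mm9), outside annotated genes and printed above, had 12 of 12 methylated reads in Dnmt TKO, 12 of 12 in wild type and 19 of 22 in Dnmt3a KO.

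No other listed CpG lay within 1000 bp of either CpG. Without both of them the pooled share of the highest class was 0.249% (interval 0.233% to 0.267%), or 5.65 times that of the lowest class. Every other shared CpG was at 18.2% or below.

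Depth was uneven among the CpGs of the middle class. The 1% with the most reads in Dnmt TKO held 65.5% of the Dnmt TKO reads of that class, and a single CpG at position 98507306 of chromosome 2 had 132863 reads, 124 of them methylated, with 25.6% in wild type. Without that 1% the pooled share of the middle class was 0.183%, nearer to its mean over CpGs of 0.185%. In the highest class the 1% with the most reads held 3.29% of reads and 16.6% of methylated reads. These methylated reads include the 144 of the chromosome 16 CpG described above. Without that 1% the pooled share of the highest class was 0.255%.

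The shared CpGs are a selected part of the genome. The libraries listed 1035670 CpGs in wild type and 558703 in Dnmt TKO, each with at least 10 reads, and 970329 and 431923 of these had over 10. The median depth at shared CpGs was 67 reads in wild type and 14 in Dnmt TKO. Only 30.8% of the wild-type CpGs over 10 reads were also over 10 in Dnmt TKO, and this share fell with the wild-type level. It was 39.0% of CpGs under 20%, 20.7% from 20% to 80% and 13.8% at 80% or more. The shared CpGs thus had a lower wild-type mean (15.6%) than the CpGs not shared (34.1%). The part of this selection in the levels given was not tested.

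Chromosomes were compared next. On 17 autosomes between 26.3% and 31.2% of the wild-type CpGs were also over 10 reads in Dnmt TKO, whereas chromosome 1 had 43.7% and chromosome 8 had 47.0%. These chromosomes stood outside the range of the others in Dnmt TKO, and at their shared CpGs the median depth was 16 reads against 14 to 15. In Dnmt3a KO, chromosome 1 had 69.1% and chromosome 8 had 71.3%, against 61.9% to 67.3% elsewhere. The X chromosome had 6.38% in Dnmt TKO and 43.6% in Dnmt3a KO. The wild-type median depth was 30 to 33 reads on every autosome and 23 on the X chromosome. The copy number of these chromosomes in the cells was not tested.

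The loss was near complete on every chromosome. Autosomal differences ran from -10.9 percentage points on chromosome 13 to -21.5 on chromosome 8 with the wild-type mean, which was 11.0% and 21.6% there. At CpGs of at least 80% the Dnmt TKO share spanned 0.168% on chromosome 19 (interval 0.0984% to 0.288%, 13 of 7726 reads) to 2.56% on chromosome 16. Without its CpG above 90% the chromosome 16 share was 0.374% (interval 0.251% to 0.556%). This remained the highest of the 19 autosomes, with an interval that overlapped even that of chromosome 19. Chromosomes 1 and 8, with the most shared CpGs, had 0.240% (interval 0.197% to 0.292%) and 0.285% (0.245% to 0.332%), and these intervals overlapped. Without both chromosomes the overall difference was -14.3 percentage points.

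On the X chromosome 56 CpGs of at least 80% had a wild-type mean of 89.0% and no methylated read among 814 in Dnmt TKO (interval up to 0.470%). The mitochondrial genome, which served as DNA with little methylation in both libraries, had 13 of 12698 methylated reads in wild type (0.102%, interval 0.0598% to 0.175%) and 18 of 11096 in Dnmt TKO (0.162%, 0.103% to 0.256%). These intervals overlapped, and the Dnmt TKO share was within the range of the nuclear classes.

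**Figure D2:**
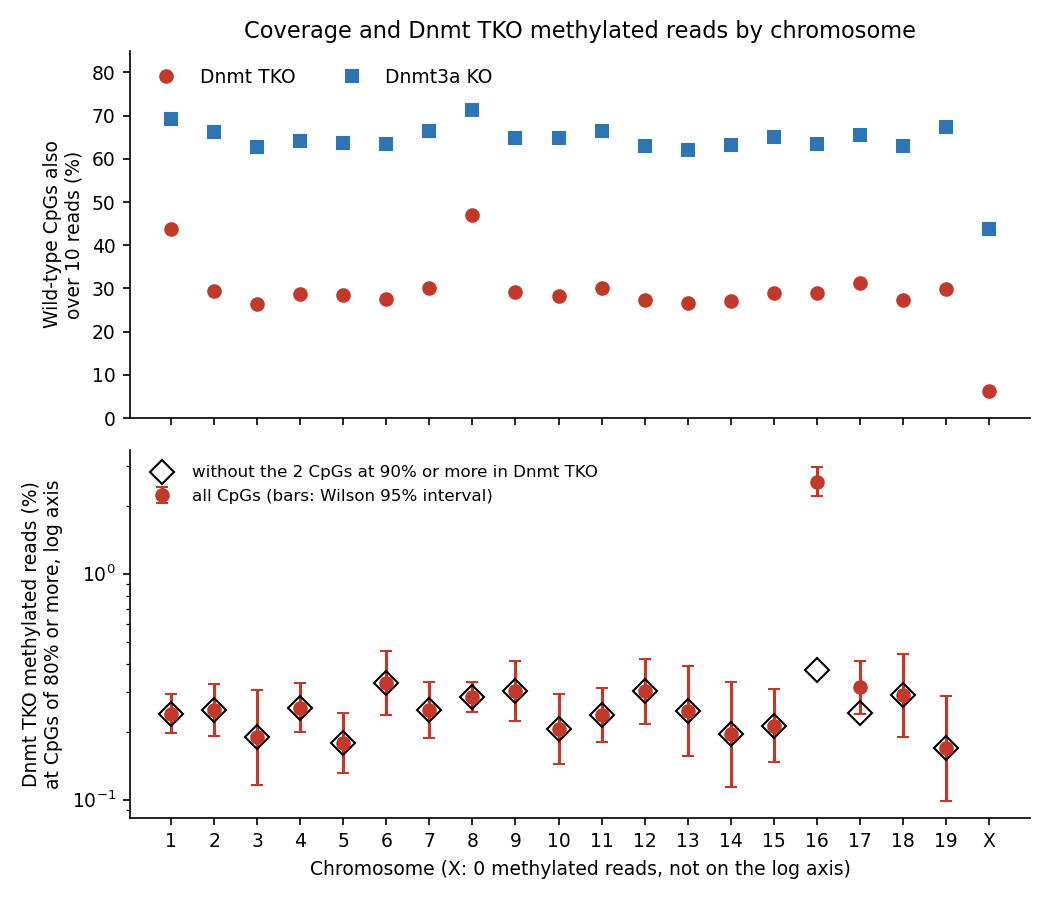
Above, the percentage of wild-type CpGs over 10 reads that were also over 10 reads in Dnmt TKO (circles) and Dnmt3a KO (squares), by chromosome; below, the Dnmt TKO share of methylated reads at CpGs of at least 80% in wild type on a log axis with 95% Wilson intervals, with open diamonds for the values without the 2 CpGs above 90%. Chromosomes 1 and 8 (43.7% and 47.0%) stand above the other autosomes in the upper panel. Chromosome 16 stands above them in the lower panel at 2.56%, against 0.374% without its CpG (interval 0.251% to 0.556%, not drawn).

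Distance to the nearest start of a protein-coding gene (GENCODE vM1) was compared next, first with means over CpGs. Within 1000 bp of a start, 170062 CpGs had a wild-type mean of 1.56% and fell by 1.52 percentage points (interval -1.53 to -1.51). From 1 to 5 kb the wild-type mean of 36708 CpGs was 17.5% and the difference -17.4. From 5 to 10 kb the values were 32.7% and -32.5, and from 10 to 50 kb they were 41.5% and -41.3. Beyond 50 kb, 27087 CpGs had 45.8% in wild type and a difference of -45.6 (interval -45.7 to -45.5). Dnmt TKO means stayed between 0.0439% and 0.155% at every distance.

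The order of the farthest classes turned with the weighting. Pooled over reads, wild type had 32.9% from 10 to 50 kb and 19.4% beyond 50 kb, and the pooled difference beyond 50 kb was -19.3 percentage points. At CpGs with over 20 reads in both libraries the mean difference beyond 50 kb was -26.3. Within 1 kb it was -3.74 when the starts of all annotated transcripts were used.

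The classes by distance held different mixtures of wild-type levels. CpGs of at least 80% made up 0.303% of those within 1000 bp and 26.7% of those beyond 50 kb. Within that class the differences were -86.1 percentage points nearest to starts and -86.6 beyond 50 kb, and the Dnmt TKO shares were 0.230% (interval 0.153% to 0.344%) and 0.270% (0.241% to 0.304%). Among CpGs under 20% in wild type the Dnmt TKO share was 0.0426% within 1000 bp and 0.0498% beyond 50 kb (intervals 0.0402% to 0.0451% and 0.0439% to 0.0565%), which overlapped. From 10 to 50 kb the class of at least 80% had 0.359%, and 0.257% (interval 0.232% to 0.285%) without the chromosome 16 CpG above 90%.

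**Figure D3:**
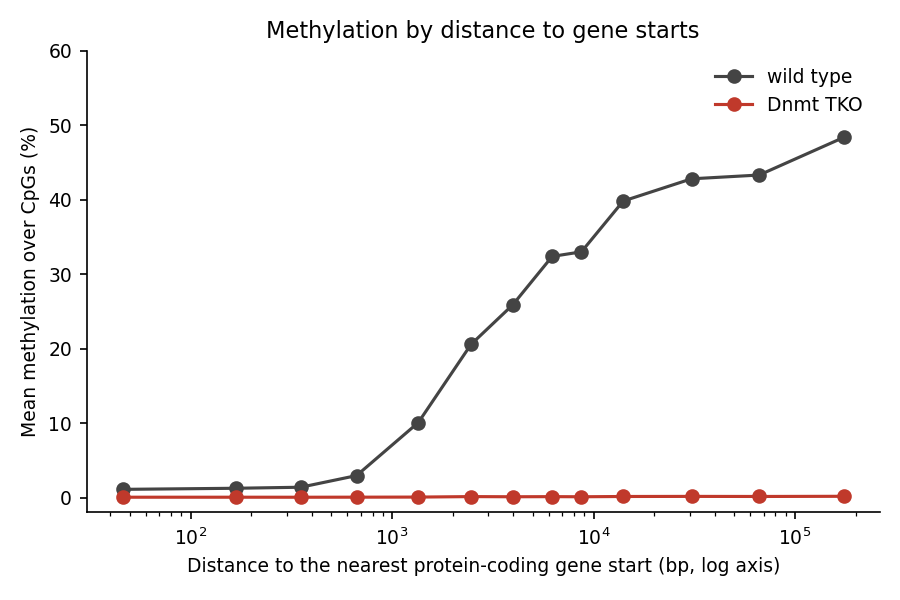
Mean methylation over CpGs in percent in wild type (grey) and Dnmt TKO (red) against the distance to the nearest protein-coding gene start (bp, log axis). As means over CpGs, wild type climbs from 1.56% within 1000 bp to 45.8% beyond 50 kb, and Dnmt TKO stays below 1% at each distance.

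Other features of the position were compared in the same way. The difference was -12.9 percentage points in exons, -18.8 in introns and -17.3 outside genes, with wild-type means of 13.0%, 18.9% and 17.4%. At CpGs of at least 80% the mean over CpGs in Dnmt TKO was 0.245% in exons, 0.261% in introns and 0.286% outside genes. Pooled over reads the order differed, with 0.239%, 0.381% and 0.283%. The intron group includes the chromosome 16 CpG above 90%, and the group outside genes that on chromosome 17. Where 10 or more CpGs fell within 50 bp on either side, as in CpG islands, the wild-type mean was 1.31%, and where 1 or 2 did it was 60.5%. In Dnmt TKO these groups had means of 0.0457% and 0.183%, with different mixtures of wild-type levels. Among CpGs under 20% in wild type the Dnmt TKO means were 0.0419% and 0.0463%, and from 20% to 80% they were 0.246% and 0.174%. At 80% or more they were 0.429% (328 CpGs, 22 of 5272 reads) and 0.269%, the latter with both CpGs above 90%.

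The distance to the MspI site, where the fragments begin, was compared as a feature of the assay. At CpGs of at least 80% the Dnmt TKO share was 0.302% at the site, 0.316% at 1 to 20 bp and 0.227% beyond 100 and up to 150 bp, and these intervals overlapped (0.228% to 0.400%, 0.258% to 0.388% and 0.166% to 0.312%). The 79 CpGs over 150 bp from a site had 10.4% (145 of 1400 reads), a value that the chromosome 16 CpG above 90% carried. Without it the other 78 had 1 of 1248 methylated reads (0.0801%, interval 0.0141% to 0.452%). The bases on either side of the CpG were compared last. Without the pair of CpGs above 90%, the share ran from 0.159% at TCGT to 0.302% at CCGG over the 16 contexts. The intervals of these contexts overlapped (0.0990% to 0.254% and 0.228% to 0.400%). CCGG is the MspI site, so its CpGs are those given above as at the site.

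The Dnmt3a KO library places the loss on a scale. At the 283005 CpGs over 10 reads in all 3 libraries, wild type averaged 14.1%, Dnmt3a KO 10.4% and Dnmt TKO 0.0776%. The CpGs of at least 80% had 86.5% in wild type, against 71.3% after loss of Dnmt3a and 0.278% in Dnmt TKO. CpGs from 20% to 80% went from 56.5% to 39.3% and 0.190%. Both knockouts are set against the same wild-type library, whose reads also chose the classes. That choice raises the wild-type mean at 80% or more and so enlarges both falls there. How much of the Dnmt3a KO fall this makes up was not tested.

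Promoters were taken as 1000 bp on either side of a gene start with at least 5 shared CpGs, which left 9152. Of these, 257 (2.81%) fell by at least 20 percentage points as a mean over CpGs. The wild-type mean was under 20% at 8892 promoters, between 20% and 80% at 234 and at least 80% at 26 (3 with over 20 reads in both libraries). The last group averaged 83.3% in wild type and 0.234% in Dnmt TKO, with 9 of 3186 methylated reads, and 24 of the 26 had none.

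Gm1840 had the highest wild-type mean, 86.6% over 14 CpGs (80% to 100%), and 0 of 231 methylated reads in Dnmt TKO, which allows up to 1.30%. Ggt5, a gamma-glutamyltransferase family member, had 85.2% over 8 CpGs in wild type and 0 of 130 in Dnmt TKO, which allows up to 2.31%. Prss40, a serine protease gene, had 85.9% and 0 of 58, and Tpst1, a tyrosine sulfotransferase, had 84.4% and 0 of 76. Of the 10 promoters with the highest wild-type mean, 9 had no methylated Dnmt TKO read. The exception was 1700123L14Rik, with 84.6% in wild type and 6 of 120 methylated reads in Dnmt TKO.

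Many germ cell genes are held silent in ES and body cells by promoter methylation. Of 58 listed, 24 could be measured and 13 of these fell by at least 20 percentage points (54.2%, against 2.81% of all promoters). Their median difference was -25.6 percentage points, against -0.0758 over all promoters, and 22 of the 24 had no methylated read in Dnmt TKO. Ctcfl, a testis relative of CTCF, went from 83.0% to 0% (0 of 63 reads, up to 4.76%). Fkbp6, needed in meiosis, went from 72.1% to 0% (0 of 224, up to 1.34%), and Asz1 from 62.6% to 0% (0 of 261, up to 1.15%).

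Within the germ cell group the wild-type levels were wide apart. Dazl averaged 39.6% over 33 CpGs that spanned 0% to 82.9%, with 0 of 411 methylated reads in Dnmt TKO. Genes of the synaptonemal complex, which joins chromosomes in meiosis, include Sycp1, Sycp2, Sycp3 and Syce2. Wild-type means were 24.7% for Sycp1, 28.0% for Sycp2 and 26.4% for Sycp3, all with 0 in Dnmt TKO. Mael, a piRNA pathway gene, had 31.9% and 1 of 549 methylated reads in Dnmt TKO. Syce2, with 2.46% in wild type and 3 of 645 methylated reads in Dnmt TKO, and Dmrtb1, at 13.3%, had too little methylation to fall by 20 points.

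Imprinted genes carry methylation on 1 parental copy at their control regions. Of 28 listed, 13 could be measured and 7 fell by at least 20 percentage points (53.8%, against 2.81% of all promoters), with a median difference of -27.3 against -0.0758 over all promoters. Zrsr1, Mcts2 and Nap1l5, which are intronless genes inside host genes, had wild-type means of 37.3%, 37.4% and 39.1% over 31, 24 and 10 CpGs. In Dnmt TKO they had 0 of 639, 0 of 363 and 1 of 129 methylated reads. Nnat, at 27.3%, and Airn, the noncoding RNA that represses Igf2r, at 40.6%, had none.

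Meg3, a noncoding RNA of the Dlk1-Dio3 domain, stood apart from the other imprinted promoters with 85.9% over 6 CpGs in wild type (80% to 93.3%). It had 0 of 69 methylated reads in Dnmt TKO, which allows up to 4.35%. The windows of Igf2r, Zdbf2, Peg12, Gnas, Grb10 and Rasgrf1 had at most 0.889% in wild type, so no fall could be measured there, and Dnmt TKO had no methylated read in them.

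The other groups had few or no falls of this size, as did promoters at large, of which 2.81% fell. Of 11 measured pluripotency promoters of 25 listed, 1 fell by 20 percentage points: Lefty1, a Nodal inhibitor, from 30.4% (9.52% to 44.0% over 7 CpGs) to 0 of 91 reads. It was named after its value was seen. Klf4, Klf5, Sox2, Fgf4, Utf1 and Klf2 were at or below 0.140% in wild type and at or below 0.189% in Dnmt TKO. Prdm14 (3.23%) and Tbx3 (0.890%) were higher in wild type and had no methylated read in Dnmt TKO. None of 14 measured housekeeping promoters of 20 listed and none of 23 measured promoters of lineage regulators of 30 listed fell by 20 percentage points. Their median wild-type means were 0% and 0.397%, and their pooled Dnmt TKO shares 0.0855% and 0.0372%.

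Of 20 genes that write, read or erase methylation, 11 could be measured and none fell by 20 percentage points, a count that does not set them apart from all promoters (2.81%). Their wild-type means reached 1.40% at Uhrf2, and Uhrf1, Tet2, Tdg, Trim28 and Mbd3 were below 0.1% in both libraries. Mbd1, a methyl-CpG binding protein, had the highest Dnmt TKO share of the group, 5 of 276 reads (1.81%) against a mean of 0.470% in wild type. The mutated genes themselves had few shared CpGs over their whole length, so the tables cannot check the knockout. Dnmt1, which copies methylation, had 26, with 1 of 355 methylated reads in Dnmt TKO against a mean of 18.3% in wild type. Dnmt3a had 20 shared CpGs, with 0 of 260 methylated reads and 8.30% in wild type, and Dnmt3b had 4, with 0 of 52 and 0.357%. Of the genes of fibroblasts, the usual feeder cells, only Vim was measured, with 0.405% in wild type and 0 of 186 reads in Dnmt TKO, and the part of feeder cells in the wild-type library was not tested.

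**Figure D4:**
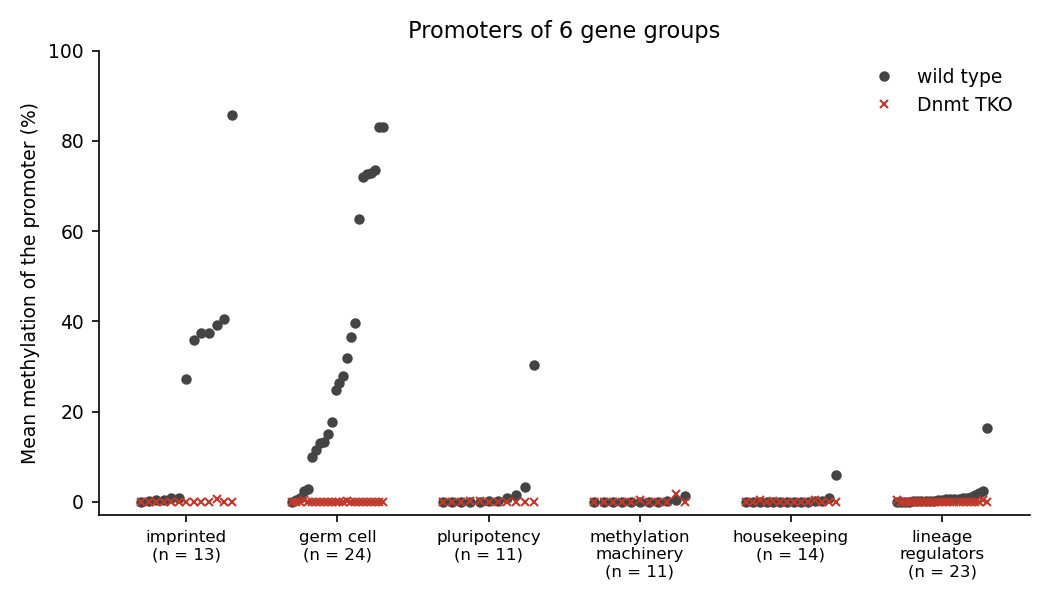
Mean methylation of promoters in percent (1000 bp on either side of the start) in wild type (grey circles) and Dnmt TKO (red crosses) for 6 gene groups; each pair of symbols is 1 promoter, ordered by wild-type level. Imprinted and germ cell promoters reach 85.9% and 83.0% in wild type, and the crosses lie near 0 in all groups.

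The promoters with the largest share of methylated Dnmt TKO reads, among those with at least 100 reads, did not share a wild-type level. Gm6396 had 6 of 107 methylated reads (5.61%) and 47.3% in wild type, and Krt26, a hair keratin gene, had 5 of 152 (3.29%) and 71.2%. Brca1, a DNA repair gene, and Nbr1, which starts beside it in the other direction, share CpGs with 8 of 149 (5.37%) in Dnmt TKO and 0 of 475 in wild type. Dclre1a, for crosslink repair, and its neighbour Nhlrc2 had 9 of 215 (4.19%) against 0 of 1065. Dtx1, a regulator of Notch, had 16 of 350 (4.57%) and a wild-type mean of 4.26%, and Capn5, a calpain protease, had 10 of 222 (4.50%) and 0.752%.

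In all of these promoters the methylated calls came as 1 per CpG over a short run. At Brca1 they were at 8 consecutive shared CpGs over 54 bp, each with 1 methylated read of 11 to 17, where wild type had 0 of 381 and Dnmt3a KO 0 of 120. At Dtx1 they were at 16 consecutive CpGs over 75 bp, at Capn5 at 10 over 49 bp and at Dclre1a at 9 over 60 bp. At 1700123L14Rik the 6 CpGs spanned 49 bp, with 325 of 380 methylated reads in wild type. Krt26 was the exception to an unbroken run, with 5 of 6 consecutive CpGs over 64 bp.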

How the data were processed

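RRBS was made from MspI-digested DNA of mouse ES cells (wild type, Dnmt3a KO and Dnmt TKO, 1 library each), and reads were aligned to mm9 (the submitters' processing notes name Trim Galore and Bowtie; versions are not given in the sources used here). Per the file headers, the deposited tables list each CpG with its total and methylated read counts and the fraction of both. Every listed position is a CG in mm9, and the smallest listed depth is 10 reads. Counts were used as deposited by the authors, and the deposited fraction was not needed.

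Levels were computed per CpG where both libraries had over 10 reads. Shares of reads carry Wilson 95% intervals, mean differences binomial counting intervals, and a count of 0 allows 3 reads of the total. All of these take the calls at neighbouring CpGs as independent. A size of 20 percentage points stood in place of a test. Distances and locations used GENCODE vM1, whose build is that of the files (Python 3.11.15, pandas 2.3.3, scipy 1.17.1). Class means, shares and differences were checked on simulated reads, drawn independently at each CpG. That simulation cannot test the intervals for neighbouring CpGs that lie on the same read.

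Promoters (1000 bp on either side of a start, at least 5 shared CpGs) were named by rule: the 10 with the highest wild-type mean, the 10 with the largest Dnmt TKO share among those with 100 or more reads, the 10 with the largest fall, and up to 8 members of each gene list with the most CpGs. Further list members named in the text were chosen after their values were seen. The comparison, its members and the gene lists were chosen with earlier results of these data known. Alternatives covered depth, weighting, the most covered CpGs, fragment size, windows, chromosomes, gene starts and a split of the wild-type reads. The sequence around 1 CpG is not reported here.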

Additional observations from a re-analysis of the deposited data

Results flagged for a closer look

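Dnmt TKO had 132916 CpGs over 10 reads that were not over 10 reads in wild type and so entered no comparison. A signal above the limit of a count of 0 was present there, with 0.118% of reads methylated (2001 methylated reads, interval 0.112% to 0.123%), between the shares of the shared CpGs under 20% and from 20% to 80% in wild type. Of these CpGs 30.3% lay over 150 bp from an MspI site, against 0.390% of the shared CpGs, and 3 had a level of at least 20%.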

How the results depend on the processing

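No paired analysis was possible because each genotype had 1 library. Of 64 alternatives over 15 results, 23 stayed within the counting interval or within 1.5 times a count, 41 moved beyond it and none turned a direction. Where a value moved, the cause was not tested unless fewer CpGs or another weighting is the alternative itself. The depth of Dnmt TKO, with a median of 14 reads, limits every statement on a single CpG, and both the strain and the culture differ with the genotype.

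With over 20 reads in both libraries, the mean difference over all CpGs was -9.04 percentage points, that at 80% or more -85.6, that within 1 kb of a start -1.38 and that beyond 50 kb -26.3. The Dnmt TKO share was then 0.125% from 20% to 80% and 0.520% at 80% or more, with 0% on the lowest autosome and 27.4% on the highest. Both the 0.520% and the 27.4%, on chromosome 16, include the CpG above 90% there, with 144 of 152 methylated reads in Dnmt TKO. Fewer CpGs were tested under this rule: 5384 fell by 20 points, a count without a computed share, and 3 promoters were at 80% or more. Pooled reads in place of means over CpGs gave differences of -9.65, -86.1 (at 80% or more), -1.44 and -19.3, and means in place of pooled reads gave 0.185% and 0.262% in the middle and highest class and 0.567% on the highest autosome. Without the 1% of CpGs with the most reads, the differences were -15.7, -1.49 and -46.9 and the shares 0.0418%, 0.182% and 0.252% by class and 0.374% on the highest autosome. Within predicted MspI fragments of 40 to 350 bp, the differences were -14.3, -1.40 and -45.1 and the shares 0.191%, 0.259% and 0.391%. Averaged over windows of 1 kb, the overall difference was -36.3, and on autosomes alone -15.5. With the starts of all transcripts, it was -3.74 within 1 kb and -53.4 beyond 50 kb. With the wild-type class and level taken from separate random parts of the reads, the difference at 80% or more was -80.6. Chosen after seeing the data, leaving out the 2 CpGs above 90% gave 0.249% in the highest class and 0.374% on the highest autosome, and leaving out chromosomes 1 and 8 gave an overall difference of -14.3.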
